A study of Mus musculus with 12 samples.

Results

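The genes described here are the cytochrome P450 genes of families 2, 3 and 4 in the mouse kidney, chosen as protein-coding genes of GENCODE M21 whose symbol is Cyp, the family number 2, 3 or 4, 1 lower-case letter and a number, with the vitamin D enzyme Cyp2r1 left out. The rule gave 71 genes of the 55401 listed, 47 in family 2, 7 in family 3 and 17 in family 4. It leaves out Cyp2ab1 and copies with a final letter, of which Cyp4a12a averaged 24.6 TPM, a length-scaled level, in 6 vehicle-treated mice. The 12 samples were whole kidneys of male C57BL6 mice aged 8 weeks, 1 RNA-Seq library per mouse. Of these, 6 mice received 1 intraperitoneal injection of vehicle, 15% 2-hydroxypropyl-beta-cyclodextrin, and 6 received 1 injection of SK-124 at 40 mg/kg. SK-124 is a small-molecule inhibitor of the salt-inducible kinases SIK2 and SIK3, and the comparison asks how acute treatment with it alters kidney mRNA. The interval between injection and collection of these kidneys is not given separately in the sources used here.

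P450 enzymes are heme proteins that insert an oxygen atom into their substrates. Those of families 2 to 4 sit in the endoplasmic reticulum and take electrons from the reductase Por. Families 2 and 3 are best known for clearing drugs, steroids and other foreign or lipid molecules in the liver, and family 4 for hydroxylating the far end of fatty acids. In the kidney, the proximal tubule holds most of this machinery, and the epoxides and hydroxylated products of arachidonic acid made there act on vessels and salt transport.

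Expected counts, the RSEM estimates of reads per gene, summed to between 19244227 and 19771802 per mouse. CPM are counts scaled to library size with edgeR's TMM method, and a gene is called when its FDR, the Benjamini-Hochberg adjusted p of edgeR's quasi-likelihood test over 14159 genes, is under 0.05. TPM are the authors' length-scaled values and are used to compare genes with each other. The 10 genes with the most counts took 39.9% to 43.2% of reads in vehicle-treated mice, 44.4% to 46.8% in SK-124-treated mice 1 to 3 and 38.6% to 40.2% in SK-124-treated mice 4 to 6. TMM factors were 0.991 to 1.08, 0.889 to 0.915 and 1.01 to 1.04 in the same order. TPM carry no such factor, and for 6 of the tested members, none of them called, the direction differed between the scales (Cyp4b1, Cyp2j5, Cyp2a4, Cyp2d26, Cyp4f13 and Cyp2j6, higher in CPM and lower in TPM). The 14 proximal tubule markers were all tested and none was called, with a median log2 fold change of -0.01 on the TMM scale. Their summed TPM was 5113 to 6076 in vehicle-treated mice and 4268 to 5623 after SK-124. Slc34a1, the phosphate transporter of that segment, was at 2133 TPM in vehicle-treated mice. In whole tissue, fewer cells of a type and less RNA per cell cannot be told apart.

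Of the 71 members, 27 passed edgeR's filter on low counts and were tested, 22 had a few reads but too few to test, and 22 had no count in any library. A member that is low in both groups could not have been tested. In vehicle-treated mice 22 members reached 1 TPM, 15 reached 10 TPM and 7 reached 100 TPM. The 3 highest made up 64.9% of all member TPM and the 10 highest 94.8%.

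The kidney program was led by fatty acid enzymes. Cyp4b1, which hydroxylates fatty acids and activates some toxins, ranged from 661 to 757 TPM in vehicle-treated mice, with a median of 683. Cyp2j5, an arachidonic acid epoxygenase abundant in kidney, ranged from 426 to 523 TPM with a median of 466. Their ranges did not overlap in vehicle-treated mice. Cyp2e1, which oxidizes ethanol, acetone and other small molecules, followed at 304 to 407 TPM with a median of 386, and lay below every Cyp2j5 value. The fatty acid omega-hydroxylase Cyp4a10 was next at 159 ± 15.5 TPM and its relative Cyp4a31 at 116 ± 7.44 TPM (SD, n = 6 each). Cyp4a31, the testosterone hydroxylase Cyp2a4 at 111 ± 11.6 TPM and the family 2 member Cyp2d26 at 103 ± 8.42 TPM had overlapping ranges, so their order is not resolved. Cyp2j13, at 94.2 ± 11.6 TPM, overlapped Cyp2a4 and Cyp2d26 above it and Cyp2j11, at 74.5 ± 6.11 TPM, below it. The steroid hydroxylase Cyp2d9 was at 48.7 ± 6.10 TPM.

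**Figure D1:**
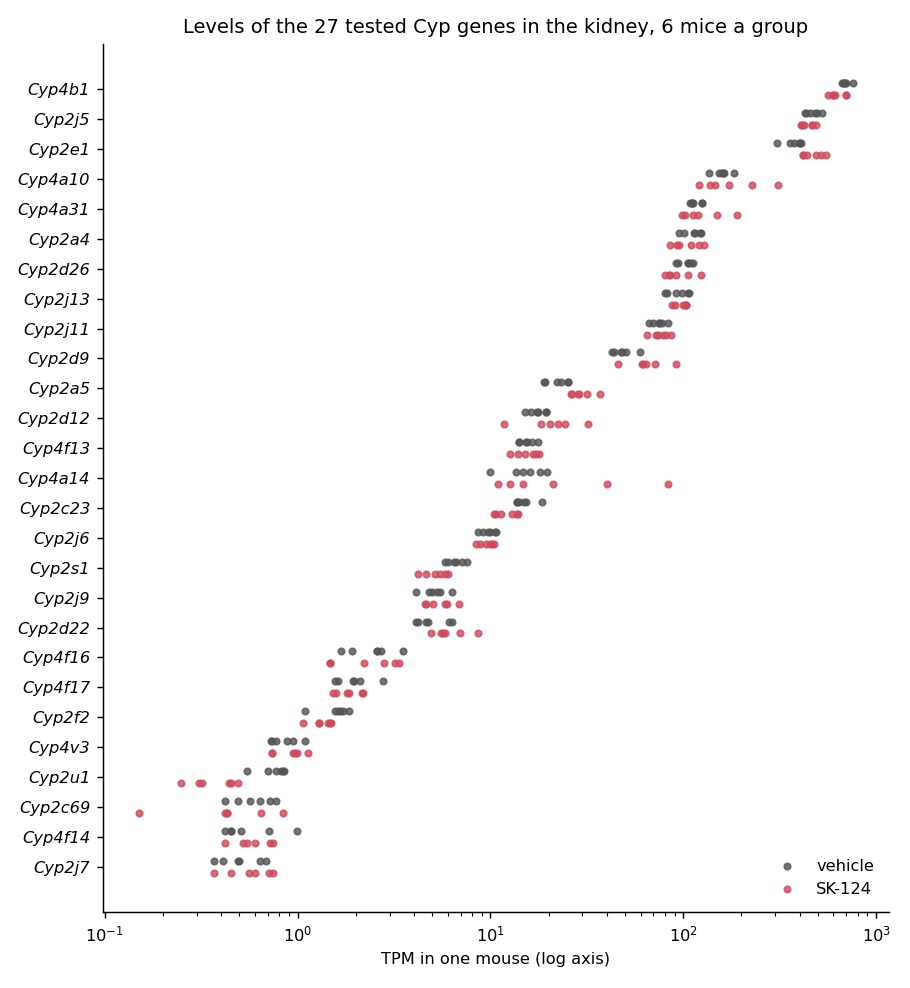
TPM of the 27 tested genes in each of 6 vehicle-treated (grey) and 6 SK-124-treated (red) mice on a log axis, in order of the vehicle mean. Levels run from Cyp4b1 at 691 TPM to Cyp2j7 at 0.517 TPM, and for Cyp2u1 the groups stand apart.

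The Cyp3a and Cyp2b genes and most Cyp2c genes were near 0. None of the 7 Cyp3a genes and none of the 5 Cyp2b genes was tested, and their summed levels in vehicle-treated mice were 0.0867 ± 0.0350 TPM and 0.0717 ± 0.0343 TPM. Of the 15 Cyp2c genes, which lead arachidonic acid epoxidation and drug clearance in liver, only Cyp2c23 and Cyp2c69 were tested, and Cyp2c23, a kidney epoxygenase, held 95.2% of the subfamily's TPM. Of the 10 liver markers, Ttr at 61.6 TPM, Serpina1a at 30.2 TPM and Apob at 23.8 TPM were the highest in vehicle-treated mice, Alb was at 1.71 TPM, and Cyp7a1 was at 0 in all 12 mice.

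Many of these genes stand in arrays of near copies, which bears on how reads are shared out. The 8 Cyp2d genes lay within 424 kb of chromosome 15 and the 8 Cyp2j genes within 637 kb of chromosome 4 (GENCODE M21, GRCm38). Cyp2a4 and Cyp2a5 were 98.4% identical over 1482 coding bases, with 23 mismatches. Cyp4a10 was 96.6% identical to Cyp4a31 and 76.2% to Cyp4a14, and Cyp2d9 was 92.1% identical to Cyp2d12. RSEM divides shared reads, and 9 of the 27 tested members had fractional counts. Its posterior SD reached 6.62 reads for Cyp4a10, at most 0.0892% of that gene's count in any library. As a share of the count it reached 0.596% for Cyp2a5 and 5.64% for the low gene Cyp2c69, itself 97.9% identical to Cyp2c40. This SD covers the division of reads within the annotation used and no error in that annotation.

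Cyp2a4 and Cyp2a5 also had nearly the same upstream sequence. RefSeq promoter windows on GRCm38.p6 were at hand for 58 members, 65 windows in all. Those of Cyp2a4 and Cyp2a5, both on the plus strand, aligned over 249 bases with 4 mismatches and were offset by 1 base. They are shown up to the first GENCODE exon, chr7:26306942-26307168 for Cyp2a4 and chr7:26835089-26835304 for Cyp2a5, and capitals mark the 4 bases that differ.
Cyp2a4: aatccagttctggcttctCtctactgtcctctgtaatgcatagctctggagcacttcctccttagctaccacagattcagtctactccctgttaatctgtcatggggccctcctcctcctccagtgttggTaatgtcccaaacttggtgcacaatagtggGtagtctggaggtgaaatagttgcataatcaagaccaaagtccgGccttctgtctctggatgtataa
Cyp2a5: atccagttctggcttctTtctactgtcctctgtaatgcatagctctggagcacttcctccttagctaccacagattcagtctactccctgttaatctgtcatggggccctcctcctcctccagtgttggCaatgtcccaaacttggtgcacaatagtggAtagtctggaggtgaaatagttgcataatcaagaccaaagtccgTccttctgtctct

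In all, 3 short motifs were looked for on both strands of the 250 bases before each RefSeq start. TATAAA, the TATA box core, was in 33.8% of member windows and in 12.4% of all 32851 windows. Among tested members it was present for Cyp2a4, Cyp2a5, Cyp2e1, Cyp2d9, Cyp2d26 and Cyp2j5. In Cyp2a5 and Cyp2d9 it stood at -29 and -28 from the RefSeq start, but after the start of a GENCODE exon. The 2 annotations thus place it differently, and the printed windows of these genes stop before it. The printed Cyp2a4 window ends within it. TGACGT, the core of the cAMP response element, was in 0 of 65 member windows and in 6.47% of all windows, which says only that these letters are not in these 250 bases. A direct repeat of AGGNCA with 1 base between the copies is the kind read by HNF4 and PPAR receptors. It was in 3 of 65 member windows (4.62%) and in 0.338% of all windows. The 3 windows are those of Cyp2d9, Cyp2d10 and Cyp2d40, which all stand in the Cyp2d array. Among tested members only Cyp2d9 held it. Its window is shown because Cyp2d9 is among the called genes below, chr15:82452127-82452335 on the plus strand, with the repeat in capitals. The RefSeq start of Cyp2d9 lies inside the longer GENCODE gene.
Cyp2d9: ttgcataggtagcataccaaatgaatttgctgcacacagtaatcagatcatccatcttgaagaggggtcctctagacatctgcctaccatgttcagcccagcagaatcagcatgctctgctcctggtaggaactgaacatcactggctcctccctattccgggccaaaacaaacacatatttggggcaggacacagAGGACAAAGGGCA

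A match is a run of letters and not a tested binding site. Windows for Cyp2u1, Cyp2d22, Cyp2d12, Cyp4a10, Cyp4a14 and Cyp4a31 were not used here.

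With SK-124, 9 of the 27 tested members were called, 7 higher and 2 lower. Over all genes tested 24.4% were called, 10.8% higher and 13.5% lower. The higher genes were Cyp2e1, Cyp2a5, Cyp2d9, Cyp2d12, Cyp2d22, Cyp2j11 and Cyp4a14, and the lower genes were Cyp2u1 and Cyp2s1. The median log2 fold change of the tested members was 0.18, against -0.01 over all genes, and 20 of 27 were above 0 in CPM but 14 of 27 in TPM. On library totals alone the 2 medians were 0.063 and -0.12, with 5 members called higher and 2 lower. Over all genes that setting called 27.1%. The groups did not overlap in CPM for 3 members, Cyp2e1, Cyp2d22 and Cyp2u1, where 13.0% of all genes did not overlap (6.32% higher and 6.65% lower). All possible assignments of mice to groups were also enumerated on log2(CPM + 0.5). In this exact permutation test 9 of the 27 had an unadjusted two-sided p under 0.05, and 0.00216 is the smallest that 6 mice against 6 allow. These are not the same 9 as the called members. The called Cyp2d12 (exact p 0.0714) and Cyp4a14 (exact p 0.0996) did not pass. The uncalled Cyp2j13 (exact p 0.0346) and Cyp4v3 (exact p 0.0281) did. The share over all genes was not computed for this test.

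**Figure D2:**
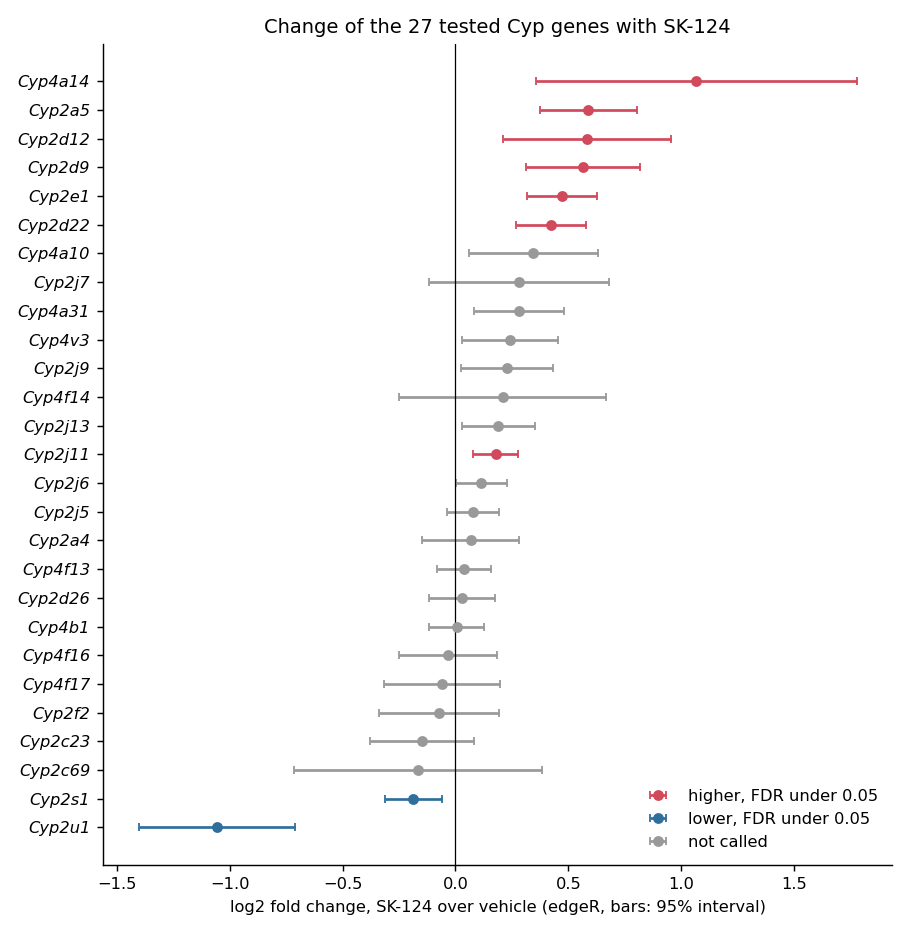
Log2 fold change of the 27 tested genes, SK-124 over vehicle, from edgeR with approximate 95% intervals over 6 mice a group. Colored points passed an FDR of 0.05, from Cyp4a14 at 1.07 to Cyp2u1 at -1.06, and most genes lie within 0.5 of zero.

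Cyp2e1 (chromosome 7, 140763739 to 140774987, plus strand) combined a high level with the smallest FDR among the genes that rose. It ranged from 501 to 769 CPM in vehicle-treated mice with a median of 664, and from 858 to 950 CPM with a median of 923 after SK-124. All 6 treated mice lay above all vehicle-treated mice, in CPM and in TPM. The log2 fold change was 0.47 ± 0.08 (SE, edgeR FDR 0.00026), or 1.39-fold, and the exact permutation p was 0.00216.

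Cyp2a5 (chromosome 7, 26835305 to 26843548, plus strand), the coumarin hydroxylase, ranged from 36.8 to 53.4 CPM with a median of 42.1 in vehicle-treated mice. After SK-124 it ranged from 50.9 to 75.1 CPM with a median of 69.1, and 4 of 6 mice lay above the vehicle maximum. In TPM the groups did not overlap, at 19.1 to 25.2 and 26.3 to 36.8. After SK-124 it was higher by a log2 fold change of 0.59 ± 0.11 (SE, edgeR FDR 0.000693). Its near copy Cyp2a4 ranged from 155 to 214 CPM in vehicle-treated mice and from 142 to 240 CPM after SK-124, and its log2 fold change was 0.07 with a 95% interval of -0.15 to 0.28 (edgeR FDR 0.71). On log2(TPM + 0.1) the difference was -0.092.

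A ratio of 2 genes within 1 library does not depend on library scaling. In each subfamily with called and uncalled members of at least 10 TPM, the highest called member was divided by the highest uncalled one, which gave 4 ratios. Since the calls themselves chose the pairs, the ratios are a description with no test, and they are of CPM and not per length. The Cyp2a5/Cyp2a4 ratio was 0.183 to 0.259 in vehicle-treated mice and 0.284 to 0.367 after SK-124, without overlap. The Cyp2d9/Cyp2d26 ratio was 0.416 ± 0.102 and 0.602 ± 0.0683 (SD, n = 6), with 4 of 6 treated mice above the vehicle maximum. The Cyp2j11/Cyp2j5 ratio was 0.128 ± 0.00400 and 0.137 ± 0.00729 (SD, n = 6), also with 4 of 6 treated mice above the vehicle maximum. For Cyp4a14/Cyp4a10 it was 0.116 ± 0.0244 and 0.171 ± 0.0838 (SD, n = 6), with 2 treated mice above the vehicle maximum.

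**Figure D3:**
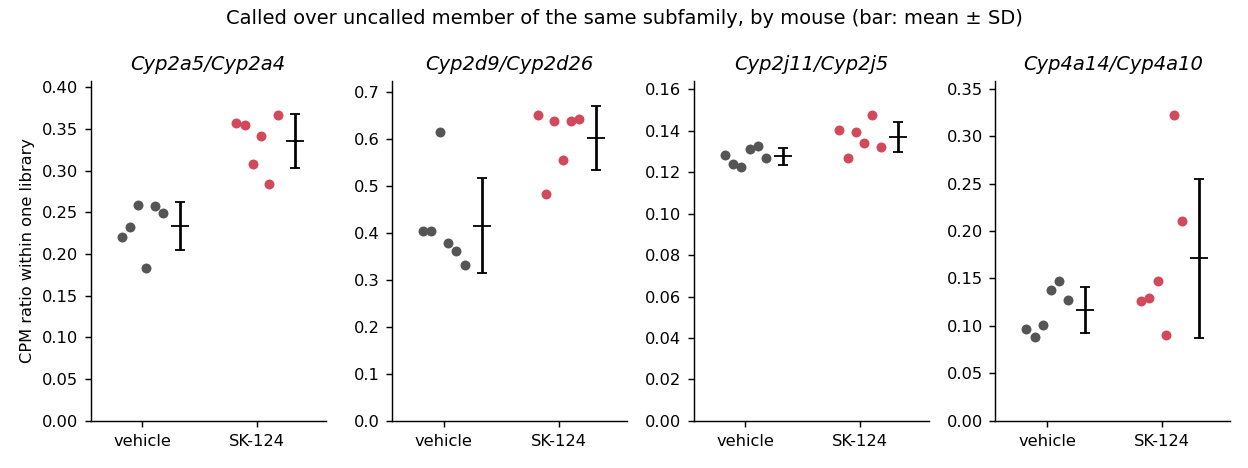
CPM ratio of a called to an uncalled member of the same subfamily in each mouse, with the group mean ± SD (n = 6). Cyp2a5/Cyp2a4 separates the groups, 0.259 at most against 0.284 at least, whereas the Cyp4a14/Cyp4a10 ratio of 2 treated mice alone exceeds the vehicle range.

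The Cyp2d array on chromosome 15 had 3 of its 4 tested members called, each higher, where 10.8% of all genes tested were called higher. The array was singled out with the calls in view, so this count is a description. Cyp2d9 (82433437 to 82456845, plus strand), a testosterone hydroxylase, ranged from 55.8 to 98.8 CPM with a median of 64.1 in vehicle-treated mice and from 83.0 to 124 CPM with a median of 100.5 after SK-124. Only mouse 3 of the vehicle group reached into the treated range. This was a log2 fold change of 0.56 ± 0.13 (SE, edgeR FDR 0.00365). The GENCODE gene overlaps 2 pseudogenes on the same strand, by 3049 and 1172 bases.

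Cyp2d22 (82370527 to 82380260, minus strand), often treated as the mouse counterpart of the human drug-metabolizing enzyme CYP2D6, was a low gene that separated the groups in CPM. It ranged from 11.3 to 14.1 CPM with a median of 12.4 in vehicle-treated mice and from 15.3 to 20.2 CPM with a median of 16.4 after SK-124. The log2 fold change was 0.42 ± 0.08 (SE, edgeR FDR 0.000765). In TPM the ranges were 4.09 to 6.33 and 4.90 to 8.61 and overlapped, and limma on log2(TPM + 1) gave a log2 fold change of 0.26 (FDR 0.166).

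Cyp2d12 (82555072 to 82560403, plus strand), a close relative of Cyp2d9, was less even. Its vehicle range was 26.8 to 34.5 CPM with a median of 29.6, and after SK-124 it ran from 21.7 to 73.3 CPM with a median of 42.2. Treated mouse 6 was below every vehicle-treated mouse and the other 5 were above all of them. Its log2 fold change was 0.58 ± 0.19 (SE, edgeR FDR 0.0331). It fell to 0.39 (FDR 0.0835) without treated mouse 1, and the call was also lost without vehicle-treated mouse 1, 4, 5 or 6 or treated mouse 2 or 4. The fourth tested gene, Cyp2d26, was at 159 to 170 CPM and 129 to 194 CPM, with a log2 fold change of 0.03 and a 95% interval of -0.12 to 0.17 (edgeR FDR 0.822). In TPM, on the log2(TPM + 0.1) scale, its difference was -0.13.

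**Figure D4:**
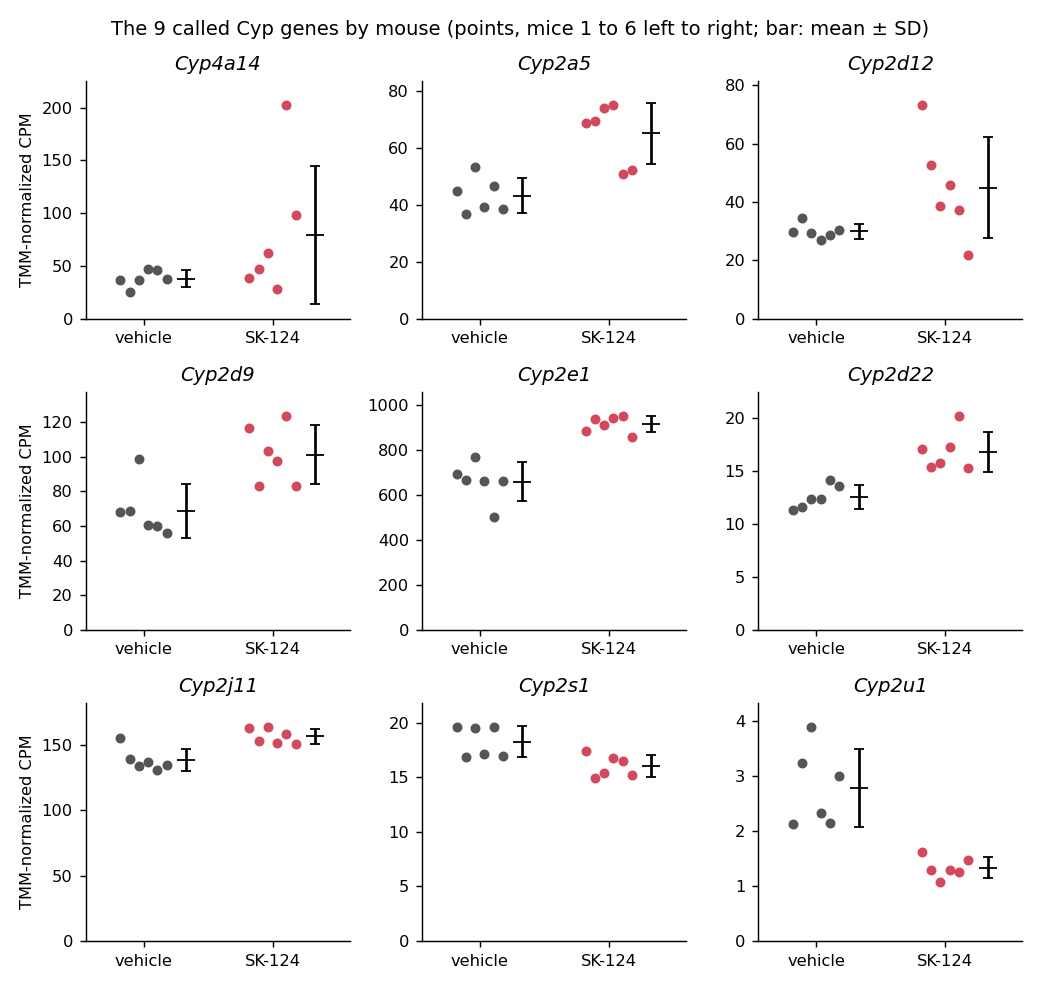
TMM-normalized CPM of the 9 called genes in each mouse, in order of log2 fold change, with the mean ± SD (n = 6) beside the points. Cyp2e1, Cyp2d22 and Cyp2u1 separate the groups, while in Cyp4a14 1 treated mouse, at 203 CPM, sets most of the spread.

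In the Cyp2j array, a subfamily known for epoxidizing arachidonic acid, 1 of 6 tested genes was called, against 24.4% of all genes tested. Cyp2j11 (chromosome 4, 96294508 to 96348662, minus strand) ranged from 131 to 155 CPM with a median of 136 in vehicle-treated mice and from 151 to 164 CPM with a median of 156 after SK-124. The groups met only through the highest vehicle value, in mouse 1. Its log2 fold change was 0.18 ± 0.05 (SE, edgeR FDR 0.0163), and it was 0.03 by limma on log2(TPM + 1) (FDR 0.861) and 0.06 on library totals (FDR 0.518). The 2 leading genes of the array did not pass. Cyp2j5 ranged from 986 to 1212 CPM and from 1071 to 1207 CPM, and the 95% interval of its log2 change was -0.04 to 0.19 (edgeR FDR 0.372), while the difference in log2(TPM + 0.1) was -0.073. Cyp2j13 ranged from 188 to 263 CPM and from 244 to 332 CPM, with a log2 fold change of 0.19 ± 0.08 (SE, edgeR FDR 0.111). Cyp2j7, at 0.555 to 1.07 CPM, had a log2 fold change of 0.28 that was not called (edgeR FDR 0.355).

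The Cyp4a genes, fatty acid omega-hydroxylases and classic targets of the fatty acid receptor PPARα, varied widely between treated mice. Cyp4a14 (chromosome 4, 115486200 to 115496142, minus strand) ranged from 24.9 to 47.3 CPM with a median of 36.9 in vehicle-treated mice. After SK-124 it ranged from 28.3 CPM in mouse 4 to 98.7 in mouse 6 and 203 in mouse 5, with a median of 54.7. The lowest 3 treated mice lay within the vehicle range. The log2 fold change was 1.07 ± 0.36 (SE, edgeR FDR 0.040, exact permutation p 0.0996), and it was 0.53 (FDR 0.140) without treated mouse 5. The call was also lost when any 1 vehicle-treated mouse or treated mouse 6 was left out.

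The neighboring Cyp4a10 and Cyp4a31 ordered the treated mice in part the same way. Treated mouse 5 was highest for both, at 629 CPM for Cyp4a10 and 399 CPM for Cyp4a31, which is 1.92 and 1.58 times the vehicle mean. Treated mouse 4, at 312 and 233 CPM, was within the vehicle range for both. Cyp4a10 had a log2 fold change of 0.35 ± 0.14 (SE, edgeR FDR 0.0979) and Cyp4a31 of 0.28 ± 0.10 (SE, edgeR FDR 0.0554), so neither was called. Cyp4a10 passed without treated mouse 1 (FDR 0.0384) or 4 (FDR 0.0462), and Cyp4a31 without treated mouse 1 (FDR 0.0435) or 4 (FDR 0.0107) or vehicle-treated mouse 3 (FDR 0.0450). Cyp4a12a, outside the naming rule, had a log2 fold change of -0.02 (edgeR FDR 0.96). Ppara mRNA was at 9.81 to 24.7 CPM in vehicle-treated mice and 17.6 to 28.1 CPM after SK-124, and was not called (edgeR FDR 0.247). The activity of PPARα was not measured, and its part in the Cyp4a values was not tested.

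**Figure D5:**
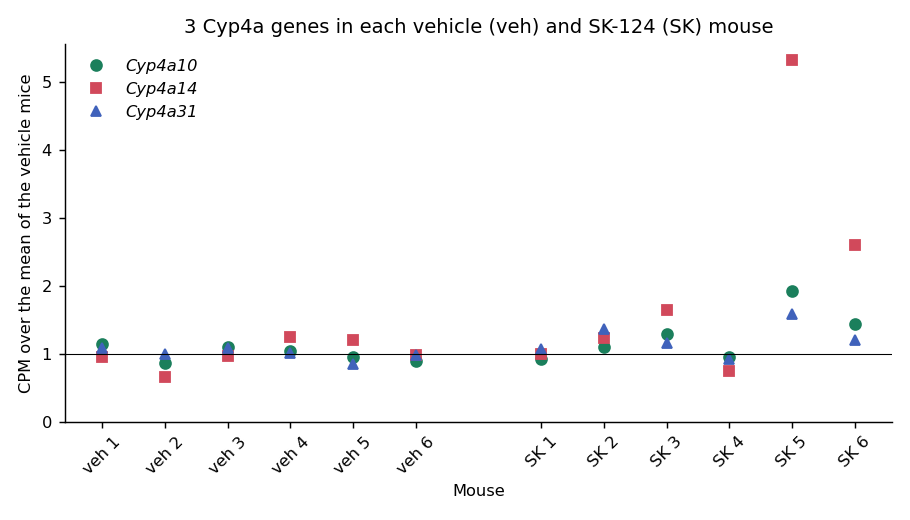
CPM of Cyp4a10, Cyp4a14 and Cyp4a31 in each mouse, divided by the mean of the 6 vehicle-treated mice. Vehicle-treated mice lie between 0.654 and 1.24, and treated mouse 5 reaches 5.33 for Cyp4a14, 1.92 for Cyp4a10 and 1.58 for Cyp4a31.

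None of the other tested family 4 genes was called. Cyp4b1 ranged from 1136 to 1338 CPM and from 1116 to 1399 CPM, and a 95% interval of -0.12 to 0.13 surrounded its log2 fold change of 0.01. In log2(TPM + 0.1) it differed by -0.15. None of the 4 tested Cyp4f genes, which hydroxylate leukotrienes and fatty acids, was called, and the highest of them, Cyp4f13, ranged from 17.9 to 20.4 CPM and from 17.1 to 21.4 CPM with an interval of -0.08 to 0.16. Its difference in log2(TPM + 0.1) was -0.0078. Cyp4v3, a fatty acid hydroxylase, was at 2.86 to 4.03 CPM and 3.53 to 4.43 CPM. It had a log2 fold change of 0.24 with a 95% interval of 0.03 to 0.46 (edgeR FDR 0.121, exact permutation p 0.0281). All 6 treated mice were above the vehicle median. A second protein-coding gene overlaps Cyp4v3 on the same strand, over 3523 bases.

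Cyp2u1 (chromosome 3, 131288441 to 131303227, minus strand), a long-chain fatty acid hydroxylase, showed the largest fall of the 27 tested members. It ranged from 2.12 to 3.88 CPM with a median of 2.65 in vehicle-treated mice and from 1.06 to 1.62 CPM with a median of 1.29 after SK-124, on 19 to 76 reads per mouse. All 6 treated mice lay below all vehicle-treated mice, in CPM and in TPM. The fitted log2 fold change was -1.06 ± 0.18 (SE, edgeR FDR 0.000249), or 0.480-fold, and the exact permutation p was 0.00216. An antisense gene overlaps it over 585 bases. Because the use of strand in counting is not given in the sources used here, reads of the pair cannot be told apart there.

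Cyp2s1 (chromosome 7, 25802475 to 25816913, minus strand), an enzyme of epithelia outside the liver, was 16.8 to 19.6 CPM with a median of 18.3 in vehicle-treated mice and 15.0 to 17.4 CPM with a median of 15.9 after SK-124. On the opposite strand it overlaps a non-coding RNA gene by 260 bases and a pseudogene by 288 bases. Of the treated mice, 5 of 6 lay below the vehicle minimum and mouse 1 lay within the vehicle range. The log2 fold change was -0.19 ± 0.06 (SE, edgeR FDR 0.0422), and the call was lost without vehicle-treated mouse 1, 3 or 5 or treated mouse 2, 3, 5 or 6 (FDR up to 0.0952). Cyp2c23 ranged from 24.4 to 37.1 CPM and from 19.0 to 31.3 CPM, with a log2 change of -0.15 and a 95% interval of -0.38 to 0.08 (edgeR FDR 0.407). The low lung-type enzyme Cyp2f2, at 2.02 to 3.12 CPM and 2.18 to 3.07 CPM, was not called (edgeR FDR 0.744). An antisense gene overlaps Cyp2f2 over 6194 bases.

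Among the untested members, Cyp2b10 stood out, and it is named after its values were seen. It had 0 to 3 reads per vehicle-treated mouse, 6 in all, and 4 to 11 reads per SK-124-treated mouse, 43 in all. The ratio of the summed reads, scaled for library size, was 7.80 with an exact 95% interval of 3.31 to 22.4 that covers counting error only. Without the filter on low counts edgeR gave a log2 fold change of 2.80 ± 0.53 (SE, FDR 0.000392) and DESeq2 2.96 ± 0.72 (SE, FDR 0.000447). Cyp2b10 is the textbook target of the receptor Nr1i3, whose own mRNA reached at most 3 reads in any library. Receptor activity was not measured, and a part of Nr1i3 in the Cyp2b10 counts was not tested. The other untested members had at most 17 reads in any 1 library. Cyp2b10 was not the most read of them, since Cyp4f15 had 88 reads in all.

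The partners of these enzymes were taken from lists of pathway genes. Of 19 genes for electron transfer and heme, all tested, 3 were called higher and 2 lower, with a median log2 fold change of 0.00. Over all genes tested, 10.8% were called higher and 13.5% lower, and no list was tested against these shares. Por, the electron donor of all these P450 enzymes, ranged from 231 to 259 CPM and from 249 to 309 CPM (log2 fold change 0.19 ± 0.06 SE, edgeR FDR 0.0203). Alas1, the rate-limiting enzyme of heme synthesis, ranged from 67.9 to 105 CPM and from 109 to 222 CPM (0.68 ± 0.15 SE, edgeR FDR 0.00316), and the groups did not overlap. Hmox1, which breaks heme down, ranged from 18.5 to 23.1 CPM and from 133 to 519 CPM (3.39 ± 0.30 SE, edgeR FDR 2.54e-07). The second heme enzyme Alad fell by 0.20 on the log2 scale (edgeR FDR 0.0223), as did the reductase Cyb5r1 by 0.21 (edgeR FDR 0.0223).

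Of 19 tested receptors and transcription factors known to act on P450 genes, 7 were called higher and 2 lower, with a median log2 fold change of 0.09. The shares over all genes tested were 10.8% higher and 13.5% lower. Cebpb rose from 11.7 to 18.7 CPM in vehicle-treated mice to 45.4 to 71.3 CPM after SK-124 (log2 fold change 2.02 ± 0.13 SE, edgeR FDR 7.31e-09), while its relative Cebpa went from 22.8 to 31.1 CPM to 11.7 to 14.9 CPM (-1.05 ± 0.09 SE, edgeR FDR 1.55e-07). The repressor Bcl6 rose by 1.10 ± 0.32 (SE, edgeR FDR 0.0179) and the bile acid receptor Nr1h4 by 0.84 ± 0.15 (SE, edgeR FDR 0.000473) on the log2 scale. The hepatocyte factor Hnf4a, at 543 to 652 CPM and 557 to 670 CPM, and the xenobiotic receptor Nr1i2, at 2.94 to 4.70 CPM and 3.03 to 4.96 CPM, were not called (edgeR FDR 0.880 and 0.982).

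Of 15 tested genes that handle fatty acid epoxides and eicosanoids, 1 was called higher and 2 lower, with a median log2 fold change of -0.03. All genes tested gave 10.8% called higher and 13.5% lower. Hpgd, which inactivates prostaglandins, ranged from 7.28 to 12.4 CPM and from 4.16 to 6.89 CPM (-0.86 ± 0.14 SE, edgeR FDR 0.000154). The lipoxygenase Alox12 fell by 0.53 (edgeR FDR 0.00244) and the arachidonate-activating enzyme Acsl4 rose by 0.39 (edgeR FDR 5.18e-05) on the log2 scale. Ephx2, the soluble hydrolase of the epoxides made by Cyp2j and Cyp2c enzymes, was at 155 to 197 CPM and 169 to 199 CPM and was not called (edgeR FDR 0.428).

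Markers of other tissues were read beside these values. No gene was called among 7 tested of 10 liver markers, 1 tested of 8 adrenal cortex markers and 3 tested of 8 fat cell markers. Their summed levels were 109 to 149, 0.130 to 0.620 and 19.2 to 60.2 TPM in vehicle-treated mice, and 83.0 to 123, 0.260 to 0.460 and 17.0 to 46.1 TPM after SK-124. Of 11 markers of other nephron segments 3 were called higher, with the water channel Aqp2 the most at 0.75 ± 0.14 on the log2 scale (SE, edgeR FDR 0.000852), and 1 lower. Of 9 tested blood cell markers 2 were called lower, the B cell genes Igkc at -2.24 ± 0.58 (SE, edgeR FDR 0.00866) and Cd79a at -1.75 ± 0.32 (SE, edgeR FDR 0.000627). Among all genes tested 10.8% were called higher and 13.5% lower. The part of the marker shifts in the P450 values was not tested.

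For comparison, 22 other P450 genes whose symbol ends in a number gave 9 tested genes. Of these, 4 were called higher and 2 lower, with a median log2 fold change of 0.04. Shares over all genes tested were 10.8% higher and 13.5% lower. The set holds the untested Cyp2ab1 and leaves out Cyp2r1 and copies with a final letter, such as Cyp4a12a. The difference between the counts of this set and those of the 71 members was not tested.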

How the data were processed

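Whole-kidney RNA of 12 mice was sequenced, 1 library per mouse, and grouped by the sample titles. For each mouse the authors deposited an RSEM gene table with expected counts (unnormalized, fractional where reads are shared), TPM and FPKM (scaled by length and library total), effective lengths and the posterior standard deviation of each count. The submitters' processing notes name STAR 2.7.2b, RSEM 1.3.0, FastQC, DESeq2 and mm10, with no roles. The annotation and strand setting are not given in the sources used here. Gene symbols and coordinates came from GENCODE M21, which 54349 of 55401 identifiers matched with their version (70 of 71 members, Cyp2c40 not).

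Expected counts were rounded, scaled with TMM, filtered with filterByExpr and tested with edgeR 4.0.16 (glmQLFit, glmQLFTest) in R 4.3.3 without a block. SE is the log2 fold change over the root of F, and 95% intervals are 1.96 SE. This normal multiplier makes the intervals approximate and somewhat narrower than the F test implies. For Cyp2j6 the interval was 0.00045 to 0.229, beside an unadjusted edgeR p of 0.0658. A self-test on simulated counts, with levels and dispersion taken from this fit, was run after it. The P450 members and the gene lists were chosen with earlier results of these data known, so their counts are descriptions. Named members were those called, the 10 highest in vehicle-treated mice, the highest of each subfamily with 1 TPM, and the 3 uncalled with the largest change, with at most 4 called genes of each list. Cyp2b10, Cyp2c69, Cyp2j6, Cyp4a12a, Cyp4v3, Por, the list genes named as not called and the ratio pairs fall outside this rule and were picked with their values in view. Coding sequences were aligned with Biopython 1.88, gaps not counted. Alternatives were DESeq2 1.42.0, limma 3.58.1 on log2(TPM + 1) or log2(TPM + 0.1), RLE, library totals, no filter, at least 10 counts, unrounded counts, robust dispersion, a replicate block, each mouse left out and the first or the last 3 SK-124-treated mice alone. A level of 10 TPM in place of 1 was added after seeing the data. Replicates were separate samples by their titles, so p-values measure the spread between these mice. No 2 libraries of 1 group looked like the same library (chi-square per degree of freedom at least 4.72 over 30 pairs). By this value, pairs with vehicle-treated mouse 3 were at 21.0 to 27.1 and the other vehicle pairs at 4.72 to 9.21. Pairs of treated mouse 1 or 2 with treated mice 4 to 6 were at 20.3 to 32.8, and the other treated pairs at 6.02 to 22.3.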

Additional observations from a re-analysis of the deposited data

Results flagged for a closer look

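The CPM of each tested member was searched for a mouse far from the other 5 of its group, by Dixon's test. Of 54 groups tested, 4 stood out, where chance gives about 2.7. Cyp2d9 in vehicle-treated mouse 3 was at 98.8 CPM, with the other 5 at 55.8 to 68.7. Cyp2c23 was also highest in that mouse, at 37.1 CPM against 24.4 to 27.9. Cyp2j11 in vehicle-treated mouse 1 was at 155 CPM against 131 to 139. Cyp2j13 in SK-124-treated mouse 2 was at 332 CPM against 244 to 271. Without vehicle-treated mouse 3 the Cyp2d9 log2 fold change was 0.70, the highest of its 12 leave-outs, and Cyp2d9 kept its call in each of them (edgeR FDR 7.44e-05 to 0.0108).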

How the results depend on the processing

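Cyp2e1, Cyp2a5, Cyp2d9 and Cyp2u1 kept their direction and their call in all 24 alternatives, Cyp2d22 in 22, Cyp2j11 in 20, Cyp2s1 in 13, Cyp2d12 in 11 and Cyp4a14 in 10. Of the 9 members called, 5 remained with limma on log2(TPM + 1) and on log2(TPM + 0.1), 3 of them higher. No other of the 27 tested members was called in these 2 fits, which called 18.6% and 18.5% of all genes. The median member log2 fold change was then 0.012 and 0.027, against -0.11 and -0.14 over all genes. That median was 0.063 on library totals and 0.096 with SK-124-treated mice 4 to 6 alone. On library totals, 20.3% of all called genes were higher, against 44.5% with TMM, and with limma on log2(TPM + 1) 19.0%. Only 1 member was called lower with DESeq2, with no filter on low counts and with either the first or the last 3 treated mice. Of the genes each tested, these settings called 14.2%, 13.2%, 15.8% and 16.7% in that order, against 24.4% in the main fit. With mice 1 to 3 alone, 2298 genes were called over all genes, against 3453 with all mice. The cause of these shifts was not tested. Cyp4a10 was called with mice 4 to 6 alone (FDR 0.0368), and Cyp4a31 with DESeq2 (FDR 0.0361), RLE (FDR 0.0490) and no filter (FDR 0.0432).

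When each mouse was left out in turn, 6 to 10 members were called, 5 to 8 higher and 1 to 2 lower. The median member log2 fold change was then 0.12 to 0.20, and 2960 to 3942 genes were called over all genes (20.7% to 27.7%). The replicate numbers did not pair the mice (correlation of same-numbered deviations -0.13 to 0.22, over 0.1 in 2 of 6 pairs, and 4 of 12 mice closest to their own number). With the number as a block, 7 members were called higher and 2 lower, with Cyp4a14 lost (FDR 0.0581) and Cyp2j9 gained. That setting called 24.5% of all genes. Of the 44 untested members, 22 had no count and none had more than 17 reads in a library, and a low level cannot be told apart from no expression at this depth.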
